A study of Mus musculus with 4 samples.

Results

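Of 9 genes grouped here as oncofetal targets of the let-7 microRNAs (Hmga1, Hmga2, Igf2bp1, Igf2bp2, Igf2bp3, Myc, Mycn, Nras and Arid3b), 7 were measured by 17 probe sets. The array's annotation held 12393 genes with 1 symbol. The 9 genes were picked by gene symbol, not by a measured value, but with earlier results of these data known. The shares and medians below are therefore descriptions. Every probe set carrying 1 such symbol was kept. Hmga1 and Igf2bp2 had no probe set named for them alone and were not analysed here. The cells were mouse P19 embryonal carcinoma cells, a pluripotent tumour line that turns towards neural fates when aggregated in retinoic acid. The control group was the unmodified line and the LIN28A group was P19 cells that constitutively express human LIN28A, whose promoter and clonal origin the labels do not give. Both groups were aggregated for 4 days with 5e-07 M all-trans retinoic acid in medium with fetal bovine and bovine serum, and each had 2 Affymetrix arrays, numbered 1 and 2.

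LIN28A is an RNA-binding protein that binds let-7 precursors and blocks their maturation. Mature let-7 pairs through its seed with sites in messenger RNAs and lowers their stability and translation, and let-7 accumulates as embryonic cells differentiate. The genes described here belong to the best-known let-7 targets. Some of them, such as Hmga2, Igf2bp1 and Igf2bp3, are high in embryonic tissue and many tumours and low in most adult tissue. The comparison asks whether their transcripts differ when LIN28A is kept on during neural differentiation. The arrays measured no mature microRNA and, being designed on mouse transcripts, did not check the human transgene.

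The mature let-7 sequences below show the seed through which the family pairs with its targets. Sites in the target transcripts themselves were not looked for. The let-7 sequences were taken from RefSeq (GRCm38.p6), are written 5′ to 3′, and have the seed, bases 2 to 8, in capitals.
let-7a-5p: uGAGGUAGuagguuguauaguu
let-7b-5p: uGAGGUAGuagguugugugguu
let-7c-5p: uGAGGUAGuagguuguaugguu
let-7d-5p: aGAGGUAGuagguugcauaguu
let-7e-5p: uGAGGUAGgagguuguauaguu
let-7f-5p: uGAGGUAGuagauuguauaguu
let-7g-5p: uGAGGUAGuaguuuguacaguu
let-7i-5p: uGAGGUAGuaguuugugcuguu
miR-98-5p: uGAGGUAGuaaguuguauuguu
let-7j: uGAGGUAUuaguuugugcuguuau

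Of 11 mature family members in the table, 10 had the seed GAGGUAG, and let-7j had another; let-7k, which is shorter, is not printed. The family members of equal length differed from let-7a by 1 base (let-7c, let-7e, let-7f), 2 bases (let-7b, let-7d, let-7g, miR-98) or 4 bases (let-7i), all outside the seed. A cluster on the minus strand of chromosome 13 held let-7d (chr13:48536078-48536099), let-7f (chr13:48537889-48537910) and let-7a (chr13:48538239-48538260). let-7f had a further copy at chrX:151912353-151912374, beside miR-98 at chrX:151913229-151913250. The DNA complement of the common seed reads CTACCTC, the core of a let-7 site.

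The arrays had median intensities of 29.0 to 38.6. The number 1 arrays gave 18S ribosomal RNA signals of 677 (control) and 136 (LIN28A), and the number 2 arrays 9.20 and 11.3, while beta-actin's 3' probe set was 2.76 to 4.71 times its 5' one. None of the 6 neural progenitor and 9 neuron markers stayed under 16 on every array. Progenitor markers summed to 3009 and 4639 on the control arrays and 3090 and 2779 on the LIN28A arrays. Their median difference in log2(intensity + 16) was 0.38 in number 1 and -0.60 in number 2. Neuron markers summed to 2515 and 3947 against 1335 and 2812, with medians of -0.61 and -0.62. Astroglia and oligodendroglia markers summed to 244 and 262 against 120 and 236, and 3 of 6 stayed under 16. Mesoderm and muscle markers summed to 71.9 and 30.8 against 51.0 and 61.8, and 4 of 5 stayed under 16. Pluripotency markers summed to 187 and 413 on the control arrays and 82.4 and 865 on the LIN28A arrays, and fibroblast and smooth muscle markers to 295 and 139 against 319.5 and 502. Of 6 endoderm markers, 5 read under 16 on every array (Afp, Foxa2, Gata4, Sox17 and Ttr). Markers of dividing cells summed to 6567 and 4141 on the control arrays and 7734 and 7067 on the LIN28A arrays, with 6 of the 8 genes that had a probe set higher in both LIN28A arrays than in both control arrays (11.5% of all tested genes were). The part of dividing or neuronal cells in the differences below was not tested, and in bulk RNA a change in the number of cells of a type and a change in RNA per cell cannot be told apart.

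Within both numbers, LIN28A lay above control at both probe sets of Igf2bp1, at 3 of 4 of Igf2bp3, at the single probe sets of Myc and Arid3b, and at 1 of 3 each of Hmga2 and Nras. At the other probe sets of Hmga2 and Igf2bp3 and at both tested ones of Mycn it lay above in number 1 and below in number 2, and at the other Nras ones the signs were the reverse, with differences of 0.20 or less in size. Differences are given in log2(intensity + 16), which understates changes of low values. Of the 17 probe sets, 16 passed the filter on low values. LIN28A lay above control within both numbers at 9 of the 16, against 24.2% of all 15838 tested probe sets, and below within both numbers at 0, against 33.3%. The 2 LIN28A arrays both exceeded the 2 control arrays at 4 of the 16 (10.0% of all tested probe sets) and both lay under them at 0 (15.5%). Those 4 probe sets belonged to Igf2bp1, Igf2bp3, Myc and Arid3b. The 16 probe sets stand for 7 genes on the same 4 arrays, so they are not independent readings. By the brightest probe set of each gene, 3 of 7 were higher without overlap (11.5% of all tested genes) and 0 lower (16.6%). A difference of at least 0.5 in both numbers was reached upwards by 1, of Igf2bp1 (1.38% of all), and downwards by 0 (2.65% of all).

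The member genes, each by its brightest probe set, had a median difference of 0.42 against -0.037 over all 8930 tested genes. Within number 1 the median was 0.49 (all genes -0.084) and, for number 2, 0.093 (all genes 0.012). No probe set passed limma's test at an adjusted p under 0.05: 0 of 16 here and 0% of all 15838, with an unadjusted p under 0.05 at 70 in the upward and 192 in the downward direction (124 and 167 with quantile normalization, 167 and 107 with median centring). The adjusted p of every probe set described below was 1.0, and the smallest unadjusted limma p among the 16 was 0.096, for Igf2bp1. With 2 arrays against 2, an exact two-sided permutation test cannot give a p below 0.333, so the arrays can be described but not separated by it. The count of non-overlapping probe sets was 5, 9, 10 and 8 higher and 2, 0, 4 and 2 lower without control 1, control 2, LIN28A 1 and LIN28A 2, where 1 array against 2 makes the condition easier to meet.

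**Figure D1:**
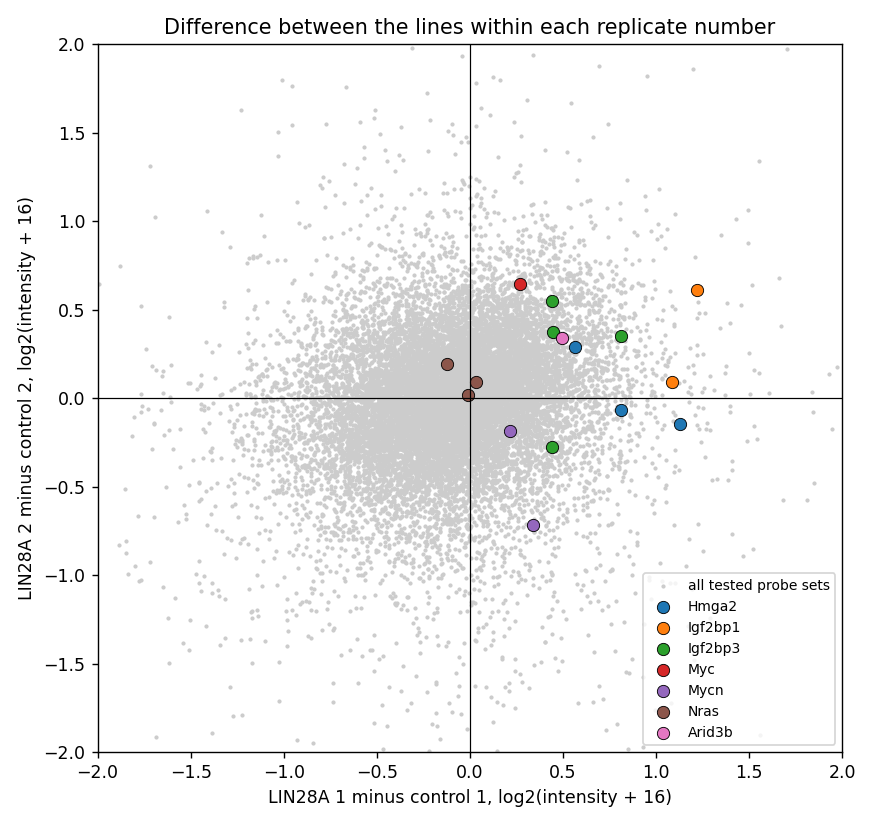
Difference between the lines within number 1 (x axis) and within number 2 (y axis), both in log2(intensity + 16), for the 16 tested probe sets coloured by gene over all tested probe sets in grey; 83 grey points lie outside the axes. Igf2bp1, Myc and Arid3b lie in the upper right part, 2 of the 3 Hmga2 points lie far to the right just below the horizontal line, and the Nras points lie near the origin.

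Hmga2 encodes an architectural chromatin protein whose AT-hooks bind the minor groove of AT-rich DNA, and its transcript carries several let-7 sites. Probe set 1422851_at read 377 and 221 in control 1 and 2 and 844 and 198 in LIN28A 1 and 2. LIN28A 1 was the highest array and LIN28A 2 the lowest, so the lines overlapped. Within number 1 the ratio of LIN28A to control was 2.24, a log2 difference of 1.13 that was larger than that of 99.4% of tested probe sets, and within number 2 it was 0.896 (-0.15). Over both numbers the difference was 0.49 ± 0.68 (limma SE, n = 2 per line). Without LIN28A 1 it turned to -0.51, and without LIN28A 2 it was 1.49. Here and below, a fit without 1 array compares unequal numbers, so part of the difference between numbers enters it.

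The other Hmga2 probe sets repeated this order of arrays in part. Probe set 1450780_s_at, whose suffix marks probes that can match further transcripts, read 362 and 267 on the control arrays and 647 and 254 on the LIN28A arrays. It differed by 0.81 within number 1 and by -0.069 within number 2, with a pooled value of 0.37 that turned to -0.28 without LIN28A 1. The dimmer 1450781_at read 76.2 and 52.0 on the control arrays and 120.4 and 67.0 on the LIN28A arrays, with 0.57 in number 1 and 0.29 in number 2, and a pooled 0.43 that was 0.068 without LIN28A 1. All 3 probe sets thus had their highest value in LIN28A 1 and were lower in number 2 than in number 1 in each line, by 0.42 to 0.73 in control and 0.72 to 2.0 in LIN28A cells.

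Igf2bp1, Igf2bp2 and Igf2bp3 encode RNA-binding proteins with KH domains that hold messenger RNAs such as those of Igf2 and Myc and guard them from decay. Igf2bp1 had the largest mean difference of the set, at 1449210_at, which read 85.0 and 53.1 on the control arrays and 218.8 and 89.7 on the LIN28A arrays. The 2 LIN28A arrays both exceeded the 2 control arrays, although LIN28A 2 exceeded control 1 by little. The ratio of LIN28A to control was 2.57 in number 1 and 1.69 in number 2, and the log2 difference was 0.92 ± 0.46 (limma SE, n = 2 per line), 1.22 in number 1 and 0.61 in number 2, with 0.34 without LIN28A 1 and 1.49 without LIN28A 2.

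The other probe set of Igf2bp1, 1418761_at, gave a different picture of the arrays. It read 59.9 and 457.8 on the control arrays and 144.9 and 489.3 on the LIN28A arrays, so number 2 stood far above number 1 in both lines. The line difference was 1.08 in number 1 and 0.093 in number 2. Between numbers, control 2 exceeded control 1 by 2.64 here but lay 0.55 below it at 1449210_at. The probe sets of Igf2bp1 therefore disagreed on the number but not on the sign of the line difference within a number. Pooled over numbers, 1418761_at differed by 0.59 ± 0.95 (limma SE, n = 2 per line), turning to -0.73 without control 1 and -0.24 without LIN28A 2.

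Igf2bp3 was measured by 4 probe sets, and LIN28A was above control in number 1 at all 4 and in number 2 at 3. At 1422610_s_at it read 530.5 and 777 on the control arrays and 942 and 996 on the LIN28A arrays. The suffix of this probe set marks probes that can match further transcripts. Here the lines did not overlap, and the LIN28A arrays lay close together. The difference was 0.58 ± 0.32 (limma SE, n = 2 per line), 0.81 in number 1 and 0.35 in number 2, and it was 0.31 without control 1.

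At the other Igf2bp3 probe sets the lines overlapped, and number 2 was brighter than number 1 in both. Probe set 1422611_s_at, whose suffix also marks probes that can match further transcripts, read 173 and 379 on the control arrays. On the LIN28A arrays it read 241 and 561.5, with differences of 0.44 and 0.55 within the numbers. Probe set 1450687_at read 86.1 and 195 on the control arrays and 123 and 257 on the LIN28A arrays, with 0.45 and 0.37. LIN28A was thus above control by similar amounts in both numbers at these probe sets. Probe set 1453957_a_at, designed on a cDNA clone rather than the reference transcript, read 44.4 and 206 on the control arrays and 65.9 and 167 on the LIN28A arrays, with 0.44 in number 1 but -0.28 in number 2. Without control 1 the pooled differences of these 3 turned to -0.036, -0.11 and -0.86, and without LIN28A 2 to -0.091, -0.078 and -0.50. Such fits compare unequal numbers, so part of the difference between numbers enters them.

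**Figure D2:**
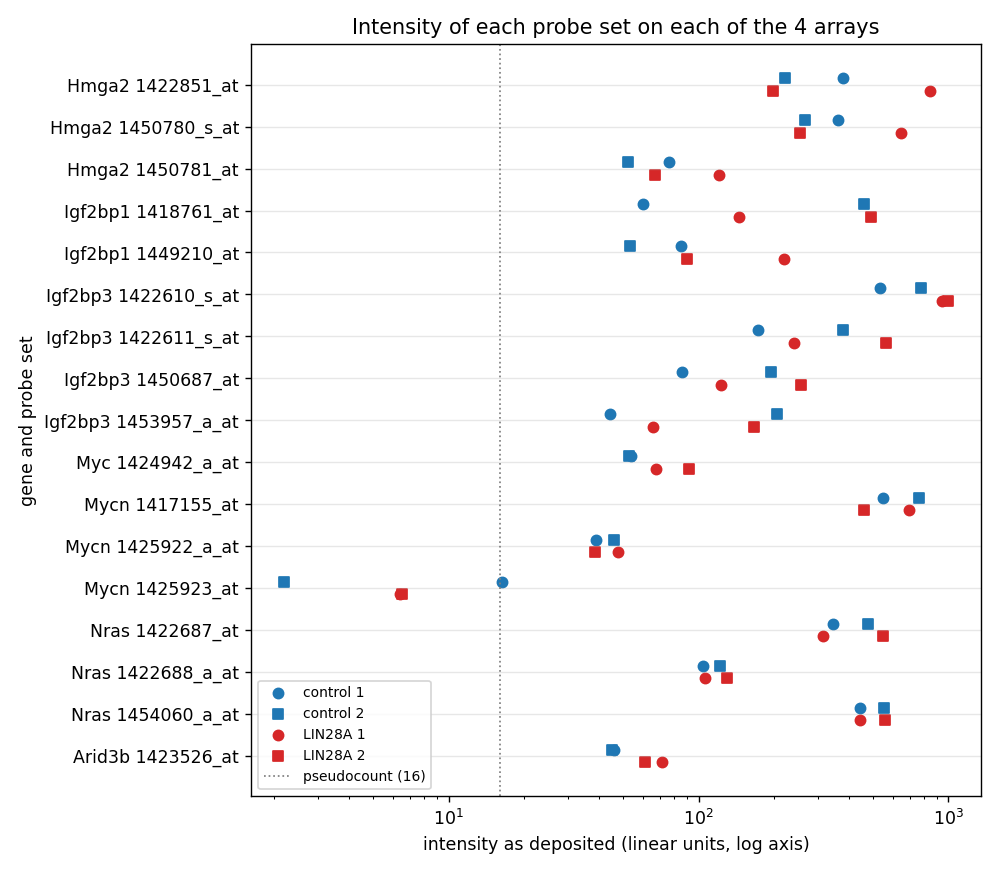
Deposited intensity (x axis, log scale) of each of the 17 probe sets (y axis) on the 4 arrays: blue for control, red for LIN28A, circles for number 1, squares for number 2, with the pseudocount of 16 as a dotted line. For Myc and Arid3b both red points lie to the right of both blue points, for Hmga2 the red circle is the highest, and for 3 of 4 Igf2bp3 probe sets both squares lie to the right of both circles.

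Myc encodes the helix-loop-helix transcription factor that drives growth and cell division genes as a dimer with Max. Its probe set read 53.5 and 52.9 on the control arrays and 67.7 and 91.6 on the LIN28A arrays. The control arrays were nearly equal and both LIN28A arrays lay above them. The difference was 0.46 ± 0.29 (limma SE, n = 2 per line), 0.27 in number 1 and 0.64 in number 2, so here number 2 had the larger difference. It was 0.64 without LIN28A 1, 0.27 without LIN28A 2 and 0.29 with a pseudocount of 64.

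Mycn, the relative of Myc that is used in neural progenitors, did not share this. At its brightest probe set, 1417155_at, it read 548 and 764 on the control arrays and 698 and 459 on the LIN28A arrays. LIN28A 2 was the lowest array and control 2 the highest, with a difference of 0.34 in number 1 and -0.72 in number 2, and of -0.19 ± 0.35 (limma SE, n = 2 per line) over both. Without control 2 the difference turned to 0.046 and without LIN28A 2 to 0.11, and it was -0.061 under median centring. Probe set 1425922_a_at read 38.9 and 46.0 on the control arrays and 47.8 and 38.6 on the LIN28A arrays, with the same signs, 0.22 and -0.18. Its pooled difference of 0.017 turned to -0.071 without control 1 and -0.096 without LIN28A 1. The third, 1425923_at, read 16.4, 2.20, 6.40 and 6.5 in control 1, control 2, LIN28A 1 and LIN28A 2, fell under the filter and was not tested.

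Nras, a small GTPase that carries growth factor signals to the Raf and MAP kinases, was close to equal in the lines at all 3 of its probe sets. At 1454060_a_at it read 444 and 553 on the control arrays and 441.5 and 559 on the LIN28A arrays, with differences of -0.0085 and 0.016 in numbers 1 and 2. At 1422687_at it read 345 and 476 on the control arrays and 315 and 547 on the LIN28A arrays, with -0.13 and 0.20. At 1422688_a_at it read 104 and 121 on the control arrays and 106 and 130.0 on the LIN28A arrays. Number 2 was above number 1 in each line at every Nras probe set, by 0.20 to 0.45 in control and 0.26 to 0.77 in LIN28A cells, so the numbers were further apart than the lines. The pooled differences of 0.035, 0.060 and 0.0038, each with a limma SE of 0.29 to 0.38, changed sign without control 1 (-0.19, -0.039 and -0.15) and without LIN28A 2 (-0.35, -0.068 and -0.16), for 1422687_at, 1422688_a_at and 1454060_a_at in turn.

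Arid3b encodes a DNA-binding protein of the AT-rich interaction domain family that acts in embryonic development. It read 45.9 and 44.9 on the control arrays and 71.1 and 61.0 on the LIN28A arrays. The 2 LIN28A arrays both exceeded the 2 control arrays, and the control arrays differed by less than any LIN28A array differed from them. The difference was 0.42 ± 0.28 (limma SE, n = 2 per line), 0.49 in number 1 and 0.34 in number 2. It was 0.33 to 0.50 without 1 array, and 0.25 with a pseudocount of 64. Its other scalings gave 0.49 (quantile normalization) and 0.54 (median centring).

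In size, the mean difference between replicate numbers exceeded the line difference at 11 of the 16 probe sets, a share close to the 66.1% of all tested probe sets. Its median size was 0.59 over the 16 probe sets and 0.35 over all tested, against 0.41 and 0.21 for the line difference. Hmga2 was lower in number 2, Igf2bp3 and Nras were higher, and Myc and Arid3b were among those whose number difference was smaller than the line difference. The signed line difference was larger in number 1 than in number 2 at 11 of the 16 probe sets (42.8% of all tested probe sets), and its size was larger in number 1 at 10. With 1 array per line and number, whether the line difference itself differs between numbers cannot be tested.

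**Figure D3:**
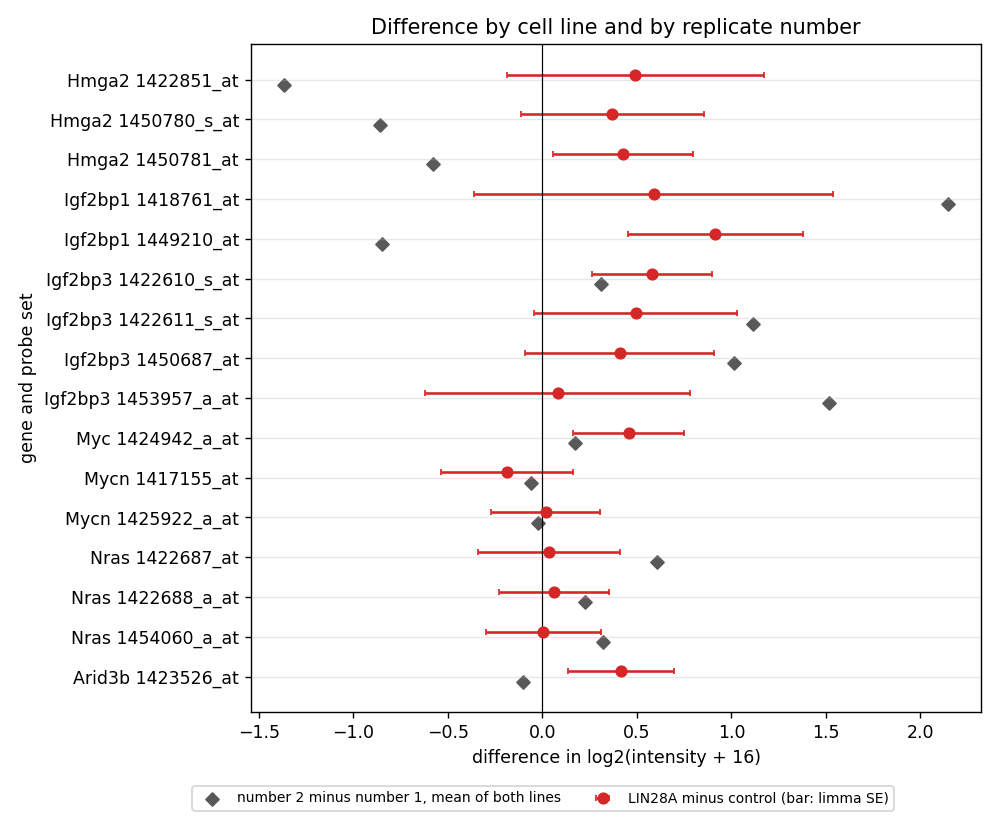
For each of the 16 tested probe sets (y axis), the LIN28A minus control difference (red circles, bars of 1 limma SE, n = 2 per line) and the number 2 minus number 1 difference averaged over the lines (grey diamonds), both in log2(intensity + 16). Diamonds reach from -1.37 for Hmga2 to 2.15 for Igf2bp1, while the red circles lie between -0.19 and 0.92.

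Other let-7 targets, taken from a list of 48 genes, had a smaller median than the oncofetal set. Of 34 tested, 25 lay above 0 (45.1% of all tested genes did), 8 had both LIN28A arrays above both control arrays (11.5% of all tested genes) and 2 below (16.6%). Their median was 0.094, with 0.20 in number 1 and 0.047 in number 2, and 0 passed limma's test in either direction. Without control 1 only 12 lay above 0 and the median was -0.076; without LIN28A 2 there were 15 and the median was -0.038. The median was 0.28 without control 2 or without LIN28A 1, and 0.22 under median centring. The cyclin gene Ccnd1, whose product starts the G1 to S transition, read 175 and 249.8 on the control arrays and 481 and 370.5 on the LIN28A arrays, 1.38 in number 1 and 0.54 in number 2. Sall4, a zinc finger factor of pluripotent cells, read 16.4 and 2.10 on the control arrays and 194 and 83.1 on the LIN28A arrays. The ribonucleotide reductase gene Rrm2, which is also a gene of dividing cells, had differences of 0.53 and 0.77, and the collagen gene Col3a1 of 0.42 and 2.61. Endogenous Lin28a, itself a let-7 target, read 30.7 and 76.2 on the control arrays and 56.1 and 37.5 on the LIN28A arrays at 1437752_at, with 0.63 in number 1 and -0.79 in number 2. Its other probe set, 1421749_at, read 28.8 and 15.5 on the control arrays and 7.0 and 8.6 on the LIN28A arrays, the latter under the pseudocount of 16. LIN28A was lower there in both numbers (-0.96 and -0.36) and without overlap. The Lin28a probe sets thus disagreed in sign in number 1 alone.

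Partners and targets of Myc had medians above 0, and none passed limma's test. Over all tested genes, 45.1% lay above 0, 11.5% were higher and 16.6% lower without overlap, and the lists below are to be read against these shares. Of 15 tested Myc partners and antagonists, 11 lay above 0, with 3 higher and 2 lower without overlap and a median of 0.079 (0.19 in number 1 and 0.034 in number 2). That median was 0.25 without control 2, 0.20 without LIN28A 2 and 0.21 under median centring. The mitotic kinase gene Aurka, whose product stabilises N-Myc and which is high in dividing cells, read 379 and 291 on the control arrays and 499.6 and 529.6 on the LIN28A arrays. Mlxip, a glucose-responsive relative in the Max network, differed by 0.55 and 0.53 within the numbers. The histone acetyltransferase scaffold gene Trrap differed by 0.98 and 0.14, and the helicase gene Ruvbl1 by 0.69 and 0.22.

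Of 24 Myc-responsive growth genes, 19 lay above 0, with 7 higher and 1 lower without overlap and a median of 0.24 that was 0.43 in number 1 (21 genes above 0) and 0.056 in number 2 (13 above 0). The median became 0.021 without LIN28A 1, 0.40 without LIN28A 2 and 0.36 under median centring. The pyrimidine synthesis genes Cad and Umps differed by 0.56 ± 0.31 and 0.52 ± 0.29 (limma SE, n = 2 per line), and the nucleolar gene Nolc1 by 0.59 ± 0.35. Shmt1, an enzyme gene of folate metabolism, lay on the other side, at 306 and 302 on the control arrays and 235 and 199 on the LIN28A arrays. A larger median in number 1 was also seen in the oncofetal set, the other let-7 targets and the Myc partners and antagonists.

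Genes around Nras and the Igf2bp proteins had no member past limma's test. Of 19 Ras and Raf signalling genes, 7 lay above 0, with 1 higher (Map2k2, the MEK2 kinase gene, 0.34) and 2 lower without overlap and a median of -0.026; 14 lay above 0 under median centring and 11 under quantile normalization, so its direction depended on the scaling. The median was -0.17 in number 1 and 0.095 in number 2, and it turned to 0.16 without LIN28A 1 and 0.030 without control 2 and was -0.24 without LIN28A 2 and -0.086 without control 1. The prenyl protease gene Rce1, which processes Ras proteins, read 118 and 136.5 on the control arrays and 94.4 and 105 on the LIN28A arrays. The farnesyltransferase subunit gene Fntb differed by -0.013 and 0.60 and the MEK1 gene Map2k1 by -0.73 and 0.14 within the numbers. Of 11 tested genes of the coding-region complex and of Igf2bp-bound transcripts, 8 lay above 0, with 4 higher and 2 lower without overlap and a median of 0.25. Within number 1, however, 5 lay above 0 and the median was -0.040, against 8 and 0.18 within number 2. The pooled median was 0.052 with averaged probe sets, 0.38 under median centring and 0.14 without LIN28A 2. Dhx9, a helicase of the complex that Igf2bp1 forms on Myc messenger RNA, read 660.3 and 931 on the control arrays and 1027 and 1465 on the LIN28A arrays, 0.63 and 0.64 within the numbers. Elavl1, which encodes the RNA-stabilising protein HuR, differed by 0.60 and 0.58, and the poly(A)-binding protein gene Pabpc1 by -0.31 and -0.38. Igf2, the transcript for which the family is named, was high in LIN28A 2 alone at its brightest probe set. That probe set read 169 and 94.1 on the control arrays and 139 and 1489 on the LIN28A arrays. The other Igf2 probe set read 1.3 and 0.1 on the control arrays and 1.9 and 0.7 on the LIN28A arrays. It fell under the filter, was not tested and showed no such rise. Igf2bp1 was highest in LIN28A 2 at 1418761_at and in LIN28A 1 at 1449210_at.

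The chromatin relatives of Hmga2 and Arid3b were mixed. Of 7 tested high-mobility-group genes, 5 lay above 0, with 4 higher and 0 lower without overlap (11.5% and 16.6% of all tested genes) and a median of 0.21. The median was 0.031 in number 1 and 0.33 in number 2, and it was 0.37 without control 1, 0.34 without LIN28A 1 and 0.34 under median centring. Hmgb3 read 1079 and 1171 on the control arrays and 1532 and 1655 on the LIN28A arrays, 0.50 and 0.49 within the numbers. Hmgn3 differed by 0.031 and 1.78, Hmgn5 by 0.15 and 0.46 and Hmg20b by 0.092 and 0.33. Of 10 ARID family genes, 5 lay above 0 and 5 below, with 2 higher (Jarid2 and Arid2) and 2 lower (Kdm5d and Arid5b) without overlap and a median of -0.024. This median was -0.057 in number 1 and 0.050 in number 2; it turned to 0.080 without control 1, 0.029 with quantile normalization and 0.10 under median centring, and was -0.20 without control 2, -0.16 without LIN28A 1 and -0.099 without LIN28A 2. Jarid2, a partner of Polycomb repressive complexes, differed by 0.66 and 0.28, and the histone demethylase gene Kdm5d by -0.52 and -0.68. Arid5b, near the pseudocount, read 25.3 and 7.30 on the control arrays and 3.80 and 5.70 on the LIN28A arrays. None of these genes passed limma's test.

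**Figure D4:**
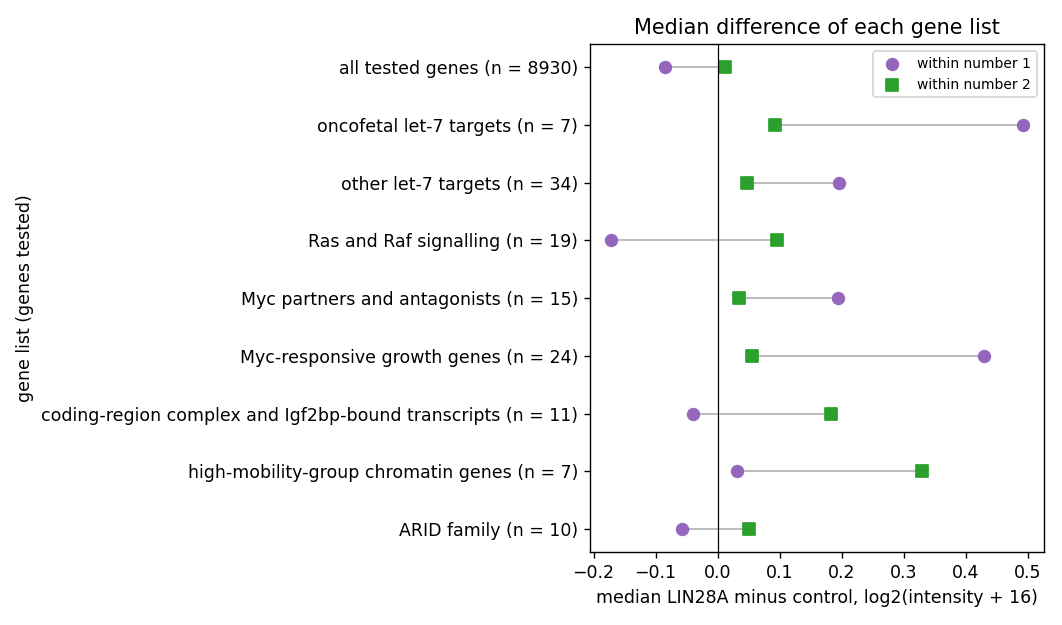
Median LIN28A minus control difference of each gene list (x axis, log2(intensity + 16)) within number 1 (purple circles) and within number 2 (green squares), with the number of genes tested. The oncofetal set has the highest number 1 median, 0.49, but not the highest number 2 median, which is 0.093. In number 2 the high-mobility-group list (0.33), the coding-region and Igf2bp-bound list (0.18) and the Ras and Raf list (0.095) lie higher. The median over all genes lies near 0 in both.

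The promoters of the set are shown for 1 motif, the Myc-binding E-box CACGTG, because Myc is itself of the set and read higher in both LIN28A arrays. RefSeq promoters (GRCm38.p6), 250 bases before to 50 after the start, were in the table for 7 of the 9 genes, with 9 promoters in all. These were Hmga2, Igf2bp3, Mycn, Nras and Arid3b of the measured genes, and Hmga1 and Igf2bp2, whose transcripts were not analysed here. The motif, which reads the same on both strands, was present in 2 of the 9 promoters and in 7.15% of all 32851 promoters in the table. Igf2bp3 had 2 copies, the first 23 bases before the start site, and Nras had 1, starting 15 bases before it, with the motif in capitals in the stretches below. A match is a description of letters and not of binding.
Igf2bp3, chr6:49214932-49214989, minus strand: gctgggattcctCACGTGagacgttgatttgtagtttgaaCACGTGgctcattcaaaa
Nras, chr3:103058258-103058287, plus strand: tagtcgtcggccCACGTGgctggggcgggg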

How the data were processed

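The authors deposited 1 table of 22690 probe sets on 4 one-colour Affymetrix arrays, with linear intensity values. The method of summarising and scaling them was not given in the sources used here. Trimmed by 2% at each end, every array averaged 150.1, so the deposited intensities were used as already scaled. The table has no detection calls. The 64 control probe sets were left out of tests. Of the rest, 20380 had exactly 1 gene symbol, 691 had several and 1555 were unnamed; 20351 gene identifiers were found in the mouse RefSeq table and 0 symbols needed an update. Of the gene symbols in the lists, 23 had no probe set of their own.

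Values were turned into log2(intensity + 16), and probe sets with a mean under the 30th percentile (about 8.04 in intensity) were left out. The lines were compared in limma 3.58.1 under R 4.3.3 (lmFit and eBayes, no trend, no block) over 15838 probe sets. Adjustment was by Benjamini-Hochberg, with a threshold of 0.05. A gene was represented in list counts by the brightest of its tested probe sets. The genes and lists were chosen with earlier results of these data known. Text names every probe set of the set, up to 4 genes of each list with the smallest unadjusted p, and Lin28a. Whether the repeats are separate cultures is not in the labels. The p-values and limma SEs therefore reflect just the spread of these 4 arrays, possibly technical, and the number of arrays limits the precision. Being fitted without a block, they include any shift between the numbers. Alternatives were the pseudocount, the scaling, the filter, eBayes trend, the replicate number as a block, averaged probe sets and leaving out each array.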

Additional observations from a re-analysis of the deposited data

How the results depend on the processing

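Over settings other than leaving out an array, 133 of 136 differences of single probe sets kept their sign and stayed short of the threshold. The exceptions were 1425923_at of Mycn, at 0.039 under quantile normalization and 0.014 under median centring, and 1454060_a_at of Nras, at -0.035 under quantile normalization. Without 1 array, 21 of 68 turned sign, and 5 of the 17 probe sets kept their sign in every setting. Leaving out 1 array makes the lines unequal in number, so part of the difference between numbers enters these values. Probe set 1418761_at of Igf2bp1 lay above control within both numbers, yet turned sign without control 1. The same-numbered arrays deviated together across probe sets (r = 0.62), but the labels give only a number. With the replicate block limma called 1 probe set higher over the whole table, none of those described here: their smallest adjusted p was 0.54, for Igf2bp1 (unadjusted 0.0074). The block lowered the limma SE at every tested probe set of the set. It went from 0.95 to 0.28 at 1418761_at of Igf2bp1 and from 0.28 to 0.21 at Arid3b. That fit takes equal numbers as belonging together, which the labels do not state. The member median ran from 0.29 (pseudocount 64) to 0.54 (median centring), and from 0.27 to 0.40 without 1 array. Median centring moved the median over all genes from -0.037 to 0.090. The Ras and Raf list had 11 genes above 0 with quantile normalization and 14 with median centring, and the ARID list 3 with averaged probe sets. The causes were not tested.

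Lowest and highest differences without 1 array were -0.51 and 1.49 (1422851_at), -0.28 and 1.02 (1450780_s_at) for Hmga2; -0.73 and 1.91 (1418761_at) for Igf2bp1; -0.091 and 1.08 (1422611_s_at), -0.11 and 0.93 (1450687_at), -0.86 and 1.02 (1453957_a_at) for Igf2bp3; -0.48 and 0.11 (1417155_at), -0.096 and 0.13 (1425922_a_at), -0.53 and 0.30 (1425923_at) for Mycn; and -0.35 and 0.42 (1422687_at), -0.068 and 0.19 (1422688_a_at), -0.16 and 0.17 (1454060_a_at) for Nras. Genes above 0 ran from 12 to 30 in the other let-7 list and from 5 to 12 in the Ras and Raf list. Probe sets of the set without overlap ran from 5 to 10 higher and 0 to 4 lower.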

Other observations

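Ccnd2, which encodes a G1 cyclin of neural progenitors and is also a let-7 target, was picked out after its values were seen. All 7 of its probe sets lay above control in number 1, by 0.020 to 1.41, and all 7 lay below control in number 2, by values of -2.10 to -0.19. Its brightest probe set, 1434745_at, read 2269 and 2270.4 on the control arrays and 3131.5 and 1988 on the LIN28A arrays. The same pair of signs was seen at 5 of the 16 tested probe sets of the oncofetal set (2 of Hmga2, 2 of Mycn and 1 of Igf2bp3) and at 16.8% of all tested probe sets.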
